A study of Mus musculus with 18 samples.

Results

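Polycomb repressive complex 1 (PRC1) was followed through 9 genes for its subunits, Cbx2, Cbx6, Cbx7, Cbx8, Ring1, Rnf2, Bmi1, Pcgf6 and Phc1, chosen by symbol among the 24346 symbols of each file. The libraries were RNA-seq of hybrid female mouse ES cells, 10 of Tsix-stop cells and 8 of E8 cells, made to compare Kdm6a KO with wt before and after differentiation into embryoid bodies (EBs). Tsix-stop cells come from a cross of cast mice with a common laboratory strain, called non-cast here, and all of them, controls included, carry a transcriptional stop in Tsix on the non-cast X, so that this X is always the silenced X. E8 cells come from a cross of BL6 and cast mice, carry no such stop, and silence either X with some skewing.

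The Tsix-stop groups were wt, Kdm6a KO (a deletion that begins in exon 2 and ends in exon 4, on both X chromosomes) and a CRISPR control, labelled neg control. The study describes such controls as treated with CRISPR/Cas9 but without the deletion. The names under which these control libraries were deposited call them KO. Results with the CRISPR control counted as wt therefore depend on its label being right. Each group was sequenced at D0, as undifferentiated ES cells grown with LIF, and at D15, as EBs grown without LIF, with 2 wt, 2 KO and 1 CRISPR control library per day. The study describes 2 homozygous clones, but the labels do not say which library came from which clone, and a difference from the CRISPR control has no replicate check. Kdm6a itself was at 54.0 and 85.5 TPM in Tsix-stop wt at D0 and 64.2 and 48.8 TPM at D15. The library labelled KO replicate 1 had 55.5 TPM at D0 and 41.6 TPM at D15, within or just below the wt range and close to the CRISPR control (53.6 and 43.5 TPM), and that labelled KO replicate 2 had 21.1 and 12.8 TPM. The values count reads over the whole gene, so the loss of a few exons need not show in them, and they neither bear out nor refute the KO label of replicate 1. KO in Tsix-stop cells therefore means the libraries labelled so, and results that changed when both libraries of replicate 1 were left out are given with that value. The E8 groups were wt and a Kdm6a KO made by deleting the promoter, with 2 libraries each at D7 and D15 by their labels, and Kdm6a was at 46.7 to 47.8 TPM in wt and at most 0.0319 TPM in KO. The study's methods describe a single E8 KO clone and a single wt control, and at other days than the labels give, so the E8 libraries are named here by their labels. The labels do not say that replicates were separate cultures, and the p-values then measure only the spread between these libraries, which may be technical.

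PRC1 places ubiquitin on histone H2A at silent developmental genes. Every PRC1 holds a RING ligase (RNF2, also called RING1B, or RING1) bound to a PCGF protein. The PCGF partner sets the kind of complex: BMI1 and PCGF2 build the canonical forms, which also hold a polyhomeotic protein such as PHC1 and a chromobox protein that reads H3K27me3, the mark that KDM6A removes, while PCGF6 belongs to a variant form that represses germline genes in ES cells. CBX7 is known as the main chromobox protein of ES cells and CBX2 and CBX8 among those that take over in differentiating cells, an exchange often called the Cbx switch.

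The 9 genes lie on 7 autosomes (GRCm38, the build of mm10, with GENCODE gene bodies). Cbx2 (chromosome 11, 119022962 to 119031270) and Cbx8 (119036305 to 119040969) are neighbours 5.04 kb apart. Cbx6 (chromosome 15, 79823896 to 79834688) and Cbx7 (79915807 to 79971119) are also neighbours, 81.1 kb apart. Rnf2 lies on chromosome 1 (151458004 to 151500955), Bmi1 on chromosome 2 (18677018 to 18686629), Phc1 on chromosome 6 (122317731 to 122340561), Ring1 on chromosome 17 (34020792 to 34024680) and Pcgf6 on chromosome 19 (47033617 to 47050906).

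Promoter windows of 300 bases (250 before to 50 after the start, from RefSeq, GRCm38.p6) were given for 8 of the 9 genes, all but Cbx2. The windows of Cbx7, Phc1 and Cbx8 are shown. The pattern of Phc1 over the libraries was like that of Cbx7, and that of Cbx8 was opposite to it, as was that of Bmi1 (below). Each window shown is written 5′ to 3′ on the gene's own strand, which is the minus strand for Cbx7, Phc1 and Cbx8, with every CG in capitals. The Cbx7 window belongs to a start 38.5 kb inside the gene body given above, against 0.334 kb for Phc1 and 0.056 kb for Cbx8, and which Cbx7 start was used in these cells was not tested.
Cbx7, chr15:79932597-79932896: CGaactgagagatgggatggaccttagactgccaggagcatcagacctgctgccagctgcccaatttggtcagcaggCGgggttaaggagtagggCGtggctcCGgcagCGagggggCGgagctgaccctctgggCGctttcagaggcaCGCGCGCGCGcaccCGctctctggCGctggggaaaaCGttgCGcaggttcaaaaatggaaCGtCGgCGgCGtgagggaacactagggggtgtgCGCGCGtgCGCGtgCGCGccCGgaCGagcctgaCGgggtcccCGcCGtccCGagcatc
Phc1, chr6:122340178-122340477: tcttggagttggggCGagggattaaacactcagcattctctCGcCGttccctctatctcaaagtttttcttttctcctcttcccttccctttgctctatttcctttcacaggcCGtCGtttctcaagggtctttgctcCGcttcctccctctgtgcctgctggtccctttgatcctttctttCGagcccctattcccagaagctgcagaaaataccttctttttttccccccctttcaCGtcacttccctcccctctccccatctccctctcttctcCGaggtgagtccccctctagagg
Cbx8, chr11:119040864-119041163: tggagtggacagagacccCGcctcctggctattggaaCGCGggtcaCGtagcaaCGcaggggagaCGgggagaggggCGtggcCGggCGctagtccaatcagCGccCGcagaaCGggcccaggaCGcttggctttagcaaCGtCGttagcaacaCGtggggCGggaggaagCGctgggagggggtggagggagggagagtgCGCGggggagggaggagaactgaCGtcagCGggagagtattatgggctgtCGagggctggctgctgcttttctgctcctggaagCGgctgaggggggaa
The Cbx7 window held 33 CGs, the Cbx8 window 24 and the Phc1 window 9, against a median of 7 over all 32851 windows. As many CGs as in the Phc1 window occurred in 45.8% of all windows, and as many as in the Cbx7 window in 8.56%. The other 5 windows held 22 (Pcgf6) to 37 (Ring1) CGs. The letters GGGCGG, searched on both strands, were in 7 of the 8 windows, all but that of Phc1, against 35.7% of all windows. The palindrome CACGTG, which does not overlap with GGGCGG, was in the windows of Bmi1, Cbx6 and Cbx8, against 7.15% of all windows. A match is a description of the letters and not a bound site.

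The Tsix-stop libraries held 51091152 to 68796179 counts, so that even Cbx8, the lowest of the 9 genes, had 94 to 365 counts per library. E8 files give only TPM, and their depth is unknown. Markers of undifferentiated cells were high in every library: the summed TPM of 6 pluripotency genes was 6320 to 7710 in Tsix-stop wt and KO at D0, 2800 to 3060 in wt at D15, 4650 to 5530 in KO at D15, 3740 to 4250 in E8 wt and 1810 to 2390 in E8 KO. The E8 wt libraries labelled D7 and D15 were low in visceral endoderm markers (5 genes, 6.16 to 9.86 TPM summed), which reached 1010 TPM in E8 KO at D7 and 215 to 216 TPM at D15. In Tsix-stop EBs at D15 the order was the opposite, with 593 to 685 TPM in wt, 20.3 to 43.3 TPM in KO and 16.7 TPM in the CRISPR control. Fibroblast markers (7 genes) summed to 2630 to 2970 TPM in Tsix-stop wt at D15, 208 to 261 TPM in KO and 107 TPM in the CRISPR control, and Dcn was at or near 0 at D0. These levels moved with genotype and day together with the PRC1 genes below, and their part in those results was not tested. In bulk RNA, fewer cells of a type and less RNA per cell cannot be told apart.

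Levels of different genes are compared here in TPM, which divides by gene length. In Tsix-stop wt at D0, Phc1 was the highest of the 9 (216 ± 8.94 TPM, SD, n = 2), followed by Rnf2 (132 ± 11.6), Pcgf6 (81.8 ± 6.32), Cbx7 (77.9 ± 1.06), Cbx2 (50.4 ± 7.08), Cbx6 (29.4 ± 3.49), Bmi1 (25.8 ± 0.892), Ring1 (9.24 ± 0.187) and Cbx8 (4.45 ± 0.785). Only Pcgf6 and Cbx7 overlapped among neighbours in this order. Phc1 was the highest and Cbx8 the lowest of the 9 in every group of both lines. In E8 wt at D7 the order was Phc1 (251 ± 11.5 TPM), Cbx7 (107 ± 3.27), Pcgf6 (80.9 ± 3.33), Rnf2 (59.6 ± 3.73), Cbx6 (30.3 ± 1.35), Cbx2 (21.8 ± 1.59), Ring1 (8.40 ± 0.297), Bmi1 (2.94 ± 0.408) and Cbx8 (0.697 ± 0.00584), with no overlap between neighbours. Cbx7 thus stood above Rnf2 and Pcgf6 in E8 wt and below both in Tsix-stop wt at D0. The lines were processed apart, and no test was made between them.

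A gene is said below to rise or fall when its FDR was at most 0.1, and to be called when the change was also at least 2-fold. In Tsix-stop wt, 2 of the 9 genes were called between D0 and D15, both lower (Bmi1 and Pcgf6), where 37.8% of all genes tested were called, 24.2% higher and 13.6% lower. By FDR alone 6 of 9 passed, against 74.6% of all genes. In Tsix-stop KO over the same days 2 were called, Bmi1 lower and Phc1 higher, against 27.6% of all genes, and 6 passed by FDR alone, against 64.7%. Between KO and wt, none of the 9 was called at D0 by edgeR, against 8.12% of all genes, none by DESeq2, and 1 passed by FDR alone (Pcgf6, against 20.5% of all genes). By edgeR 2 had an unadjusted p under 0.05 (Bmi1 and Pcgf6), against 3765 of the 13121 genes tested. At D15, Cbx8 was the 1 gene called between KO and wt, and it was lower, against 14.9% of all genes called and 11.1% called lower, and 5 passed by FDR alone, against 44.6%. The interaction, which tests whether the change with day differed between KO and wt, was called for Pcgf6, which was higher, against 17.1% of all genes called and 6.62% called higher, and 5 passed by FDR alone, against 34.2%. In none of these Tsix-stop comparisons was the share of PRC1 genes called above that of all genes.

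The same count in E8 gave 2 genes called between KO and wt at D7 (Cbx8 and Bmi1, both higher), against 17.5% of all genes called and 11.4% called higher, and none at D15, against 10.7%. Cbx8 passed the filter on low values only through the KO libraries and had to be higher there to be tested. DESeq2 could not be used on TPM. At D15 8 of 9 had an unadjusted p under 0.05 by limma, against 9376 of the 12452 genes tested. The E8 replicates lay so close together that 84.8% of all genes passed by FDR alone at D7 and 78.3% at D15, so passing the FDR says little there. Between D7 and D15 no gene of the 9 was called in E8 wt, against 1.41% of all genes, with 4 passing by FDR alone (58.6% of all genes). By limma 4 had an unadjusted p under 0.05 there, against 7091 of the 12452 genes tested. Bmi1 was called lower in E8 KO, against 6.11% of all genes called and 2.7% called lower, with 8 passing by FDR alone (75.9% of all genes). The interaction of KO and day was called lower for Bmi1 in E8, against 7.25% of all genes called and 3.36% called lower, with 6 passing by FDR alone (67.2%). E8 changes are on the log2(TPM + 1) scale, which understates the change of low genes such as Cbx8 and Bmi1. Rescaling each E8 library to the same median moved the median KO difference of all genes by -0.21 at D7 and -0.16 at D15. With it the share of higher genes among those called went from 64.7% to 47.4% at D7 and from 71.4% to 59% at D15, Phc1 became called as well at D7 (-1.01), and the small differences of Rnf2 at D7 and of Pcgf6 at both days changed sign.

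**Figure D1:**
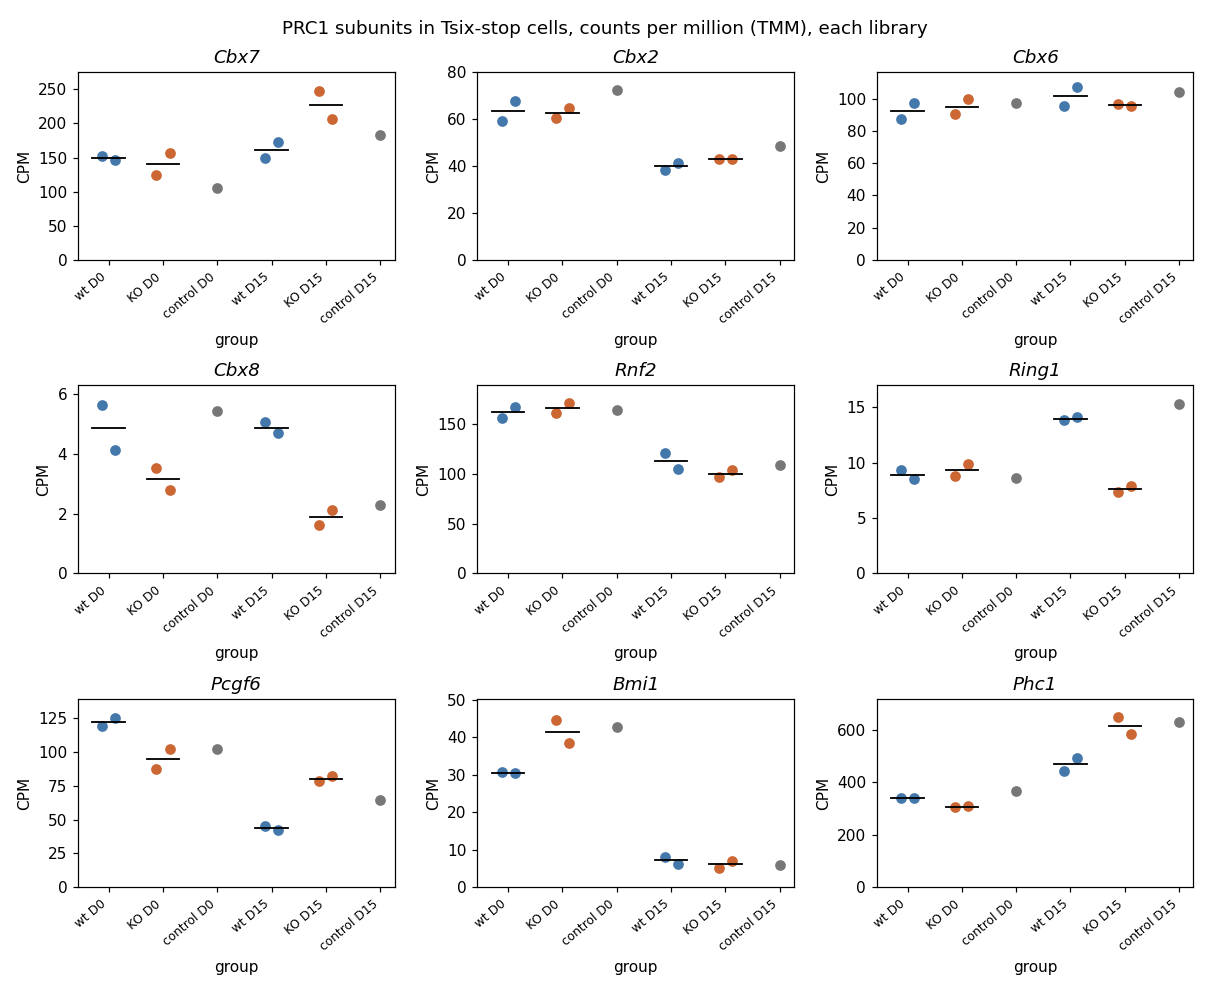
Level of each gene in CPM (counts scaled by library size, vertical axes, from 0) in the 10 Tsix-stop libraries, by group; points are libraries and bars are means of 2. Bmi1 and Pcgf6 drop from D0 to D15 in wt, Pcgf6 stays near its D0 level in KO, and among the wt and KO groups Cbx7 and Phc1 are highest at D15 in KO.

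Cbx7, the chromobox gene of ES cells, was as high or higher at D15 as at D0 in every Tsix-stop group. In Tsix-stop wt it was at 153 and 147 CPM at D0 and 149 and 173 CPM at D15, and the libraries of the days overlapped (log2 change 0.10 ± 0.15, SE, FDR 0.56). The KO libraries were at 125 and 156 CPM at D0 and 248 and 206 CPM at D15, with every D15 library above every D0 library, and Cbx7 rose 1.61-fold (0.69 ± 0.15, FDR 0.004). At D15 both KO libraries therefore lay above both wt libraries, by 1.41-fold (0.50 ± 0.15, FDR 0.031). That difference did not reach 2-fold. Its pass was lost without wt replicate 1 at D15 (0.38), without KO replicate 1 at D15 (0.39) and with the CRISPR control as wt (0.45, FDR 0.13). The change with day differed between KO and wt at an FDR of 0.071, which was lost when any of 5 single libraries was left out (FDR 0.11 to 0.22). Without both KO libraries of replicate 1 the rise within KO was 0.41 (FDR 0.13), the KO difference at D15 was 0.39 (FDR 0.13), the interaction was 0.32 (FDR 0.42) and none passed.

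In E8, Cbx7 moved the other way between the genotypes. It was at 109 and 105 TPM in wt and 70.6 and 67.1 TPM in KO at D7, and the KO was lower by 1.55-fold (-0.63 ± 0.04, FDR 5.5e-06). At D15 it was at 110 and 117 TPM in wt and 93.7 and 90.9 TPM in KO, with the KO still below every wt library but by less (1.23-fold, -0.30 ± 0.04, FDR 0.00055). Within the KO it rose from D7 to D15 (0.42 ± 0.04, FDR 0.0001), and in wt it did not pass (0.08 ± 0.04, FDR 0.15).

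Cbx2, the neighbour of Cbx8 and a chromobox protein able to compact chromatin, fell in Tsix-stop cells of both genotypes. It was at 59.0 and 67.9 CPM in wt at D0 and 38.4 and 41.4 CPM at D15, a fall of 1.59-fold (-0.67 ± 0.12, FDR 0.00096). In KO the values were 60.5 and 64.9 CPM at D0 and 43.2 and 42.9 CPM at D15, a fall of 1.45-fold (-0.54 ± 0.12, FDR 0.0044). The KO libraries did not differ from wt by the test at either day (-0.02 ± 0.12 at D0, FDR 0.94; 0.11 ± 0.12 at D15, FDR 0.49). In E8, Cbx2 was at 18.4 to 22.9 TPM in every library, and no difference between days or genotypes was over 1.19-fold. It was lower in KO at D7 (-0.22 ± 0.06, FDR 0.011) and higher at D15 (0.21 ± 0.06, FDR 0.014). The interaction of KO and day passed (0.42 ± 0.08, FDR 0.0036). With libraries rescaled to the same median the D15 difference was 0.05 (FDR 0.38).

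Cbx6, which stands next to Cbx7 and is less studied, varied least of the 9 in Tsix-stop wt and KO. It ranged from 87.5 to 107 CPM over the wt and KO Tsix-stop libraries and reached at most 33.7 TPM in E8, where its lowest libraries were those of KO at D7. No Tsix-stop comparison passed for it (FDR 0.33 to 0.91, interaction 0.64). In E8 its KO libraries were 1.16-fold lower at D7 (at most 26.1 TPM against 31.2 and 29.3 TPM in wt, FDR 0.0053) and overlapped with wt at D15.

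Cbx8, which is best known from differentiated cells, was the lowest of the 9 genes and the only gene of them called between KO and wt at D15 in Tsix-stop cells. In Tsix-stop cells it was at 5.63 and 4.13 CPM in wt at D0 and 5.08 and 4.69 CPM in wt at D15, with a log2 change of 0.00 ± 0.27 (FDR 1.0). In KO it was at 3.53 and 2.81 CPM at D0 and 1.62 and 2.14 CPM at D15, below every wt library at both days, and it fell 1.69-fold (-0.75 ± 0.28, FDR 0.047, but 0.2 without KO replicate 1 at either day and 0.43 without both). The KO difference at D15 was 2.60-fold and was called (-1.38 ± 0.28, FDR 0.0074; -1.16, FDR 0.033, without both KO libraries of replicate 1), and that at D0 was not (-0.62 ± 0.28, FDR 0.18). The interaction of KO and day did not pass (-0.76 ± 0.39, FDR 0.19), so that the differences at D0 and D15 were not shown to differ from each other.

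In E8 the direction for Cbx8 was the opposite. It was at 0.693 and 0.701 TPM in wt at D7 and 4.80 and 5.03 TPM in KO, and it was called higher (1.80 ± 0.07, FDR 3.4e-07). At D15 it was at 0.947 and 1.07 TPM in wt and 2.91 and 2.64 TPM in KO (0.91 ± 0.07, FDR 2e-05), below 2-fold on the log2(TPM + 1) scale but called with a pseudocount of 0.1 in place of 1 (1.38). Cbx8 passed the filter of 2.5 TPM in 2 libraries only through the KO groups, so it had to differ between the genotypes in E8 to be tested at all.

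As shares of the summed TPM of Cbx2, Cbx6, Cbx7 and Cbx8, Cbx7 held 49.9% and 46.3% in Tsix-stop wt at D0 and 54.2% and 55.8% at D15. In KO it held 44.9% and 48.6% at D0 and 65.9% and 61.8% at D15, with both D15 libraries above every Tsix-stop wt library. Cbx2 went from 31.0% ± 2.3 (SD, n = 2) to 20.9% ± 0.64 in wt and from 32.0% ± 1.6 to 18.6% ± 1.4 in KO. Cbx8 was the smallest part, with 2.96% ± 0.42 in wt and 0.945% ± 0.26 in KO at D15. E8 wt held the largest Cbx7 share, at 66.6% to 68.3%, and E8 KO held 58.7% and 57.6% at D7 and 61.7% and 62.2% at D15. With 2 libraries against 2 the smallest p of a two-sided exact permutation test is 0.333, so this test cannot pass 0.05, and no other test of these shares was made. Cbx7 held the largest of the 4 shares in every wt and KO library of both lines, and in the CRISPR control at D0 Cbx2 was above it (38.9% against 36.8%).

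**Figure D2:**
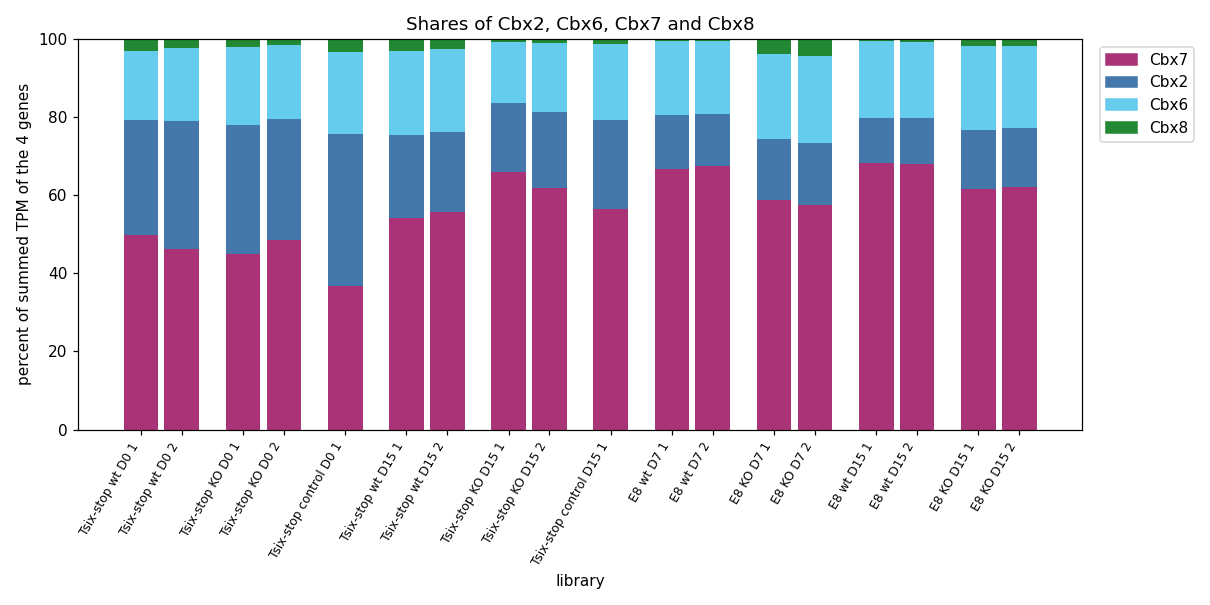
Share of Cbx2, Cbx6, Cbx7 and Cbx8 in their summed TPM (vertical axis, percent) in each of the 18 libraries; each bar is 1 library. Cbx7 holds 44.9% to 65.9% in Tsix-stop wt and KO and 57.6% to 68.3% in E8, and Cbx8 is a thin band.

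Rnf2, the RING ligase with most of the activity in ES cells, fell with day in Tsix-stop cells of both genotypes. It was at 156 and 167 CPM in wt at D0 and 121 and 105 CPM at D15 (-0.51 ± 0.11, FDR 0.0034), and at 161 and 171 CPM in KO at D0 and 96.4 and 104 CPM at D15 (-0.73 ± 0.11, FDR 0.00076). KO and wt did not pass at either day (FDR 0.86 at D0 and 0.25 at D15). In E8 its KO libraries were higher at D15, at 73.1 and 75.7 TPM against 60.7 and 57.2 TPM (1.26-fold, FDR 0.00061). At D7 the E8 difference was 0.11 ± 0.05 and turned to -0.12 when libraries were rescaled to the same median.

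Ring1, its paralog, was lower in KO at D15 in Tsix-stop cells and higher in E8. In Tsix-stop wt it was at 9.29 and 8.52 CPM at D0 and 13.8 and 14.1 CPM at D15, and it rose 1.56-fold (0.65 ± 0.17, FDR 0.0088). In KO it was at 8.80 and 9.84 CPM at D0 and 7.34 and 7.85 CPM at D15, with the D15 libraries below those of D0 and no pass (-0.30 ± 0.17, FDR 0.17). At D15 the KO was 1.83-fold lower (-0.88 ± 0.17, FDR 0.0062), and the change with day differed between the genotypes (-0.94 ± 0.24, FDR 0.026). In E8 the KO was higher at both days, at 15.1 and 14.7 TPM against 8.61 and 8.19 TPM at D7 (1.69-fold, FDR 3.8e-06) and at 16.0 and 16.6 TPM against 9.49 and 10.1 TPM at D15 (1.60-fold, FDR 1.1e-05). Ring1 was the 1 gene of the 9 whose count depended on the genome used: its counts on the non-cast genome were 1.42 to 1.55 times those on the cast genome, against 0.967 to 1.02 for the other 8 genes. On the cast genome the interaction was -1.07 and was called, but it did not pass on non-cast SNP reads (-1.22, FDR 0.11) or cast SNP reads (-0.56, FDR 0.49). The KO difference at D15 did not pass on cast SNP reads either (-0.58, FDR 0.27). On these reads the change with day in wt turned to -0.45 (FDR 0.28). As a share of Rnf2 and Ring1 TPM, Rnf2 held 93.4% ± 0.66 (SD, n = 2) in Tsix-stop wt at D0 and 86.4% ± 1.4 at D15, and 93.3% ± 0.23 and 91.2% ± 0.03 in KO, so Rnf2 stayed the larger part in all groups.

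Pcgf6, the PCGF protein of the variant complex at germline genes, fell with day in Tsix-stop wt and did not pass in KO. It was at 119 and 125 CPM in Tsix-stop wt at D0 and 45.1 and 42.2 CPM at D15, a called fall of 2.80-fold (-1.48 ± 0.12, FDR 1.3e-05). In KO it was at 87.3 and 102 CPM at D0 and 78.8 and 82.0 CPM at D15, a change of -0.23 ± 0.11 that did not pass (FDR 0.11). The interaction of KO and day was called (1.25 ± 0.16, FDR 0.0022) and was the only Tsix-stop interaction called among the 9 in these counts. KO was lower than wt at D0 (-0.37 ± 0.11, FDR 0.069), a pass lost without any of 3 single libraries. Without both KO libraries of replicate 1 the D0 difference was -0.26 and did not pass. At D15 KO was higher, by 1.84-fold (0.88 ± 0.12, FDR 0.0012). With the CRISPR control counted as wt, the interaction was 0.98 (FDR 0.084) and no longer 2-fold. In E8, Pcgf6 was at 75.0 to 87.3 TPM in every library, and no difference was over 1.11-fold.

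Bmi1, a PCGF protein of canonical PRC1 that was first known as an oncogene, had the largest change with day of the 9 genes in Tsix-stop cells. In Tsix-stop wt it was at 30.6 and 30.3 CPM at D0 and 8.04 and 6.26 CPM at D15 (4.25-fold lower, -2.09 ± 0.20, FDR 3.1e-05). The KO had 44.5 and 38.3 CPM at D0 and 5.09 and 6.93 CPM at D15 (6.89-fold lower, -2.78 ± 0.20, FDR 2.1e-05). The groups of the days did not overlap in either genotype, and wt and KO overlapped at D15 (-0.25 ± 0.20, FDR 0.35). At D0 both KO libraries lay above wt, without passing (0.45 ± 0.19, FDR 0.16). The interaction of KO and day passed (-0.70 ± 0.27, FDR 0.096). It did not pass with the replicate block (-0.69, FDR 0.12), with no filter (-0.66, FDR 0.12) or with the CRISPR control as wt (-0.41, FDR 0.47). Nor did it pass on non-cast (-0.96, FDR 0.15) or cast SNP reads (-0.48, FDR 0.36), or on the cast genome (-0.67, FDR 0.12) or either genome (-0.69, FDR 0.12). The pass was also lost without wt replicate 1 at D15 (-0.52) and without KO replicate 1 at D15 (-0.47), among other single libraries. Without both KO libraries of replicate 1 the interaction was -0.36 and did not pass.

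In E8, Bmi1 was at 3.23 and 2.65 TPM in wt at D7 and 10.6 and 10.0 TPM in KO, called higher (1.53 ± 0.08, FDR 1.1e-06). At D15 it was at 2.70 and 2.78 TPM in wt and 3.70 and 3.75 TPM in KO (0.34 ± 0.08, FDR 0.0055). The fall within the KO was called (-1.26 ± 0.08, FDR 8.2e-06), and so was the interaction (-1.19 ± 0.11, FDR 0.0001). Over the same days the summed visceral endoderm markers in E8 KO went from 1010 to between 215 and 216 TPM, and the part of such cells in the change of Bmi1 was not tested. Among the 6 Pcgf genes, Bmi1 went from 9.88% ± 0.36 to 3.02% ± 0.52 of their summed TPM in Tsix-stop wt and from 13.3% ± 2.7 to 2.64% ± 0.62 in KO, and Pcgf6 from 31.3% ± 0.18 to 14.6% ± 0.64 in wt and from 23.7% ± 0.22 to 27.9% ± 1.3 in KO. Pcgf2, the other canonical Pcgf gene, held more than either in these groups. Its share was 44.8% ± 0.22 at D0 and 51.8% ± 2.8 at D15 in wt, and 48.5% ± 3.1 and 44.9% ± 4.0 in KO.

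Phc1, a polyhomeotic protein that joins PRC1 complexes through its SAM domain, rose with day in Tsix-stop cells. It was at 340 CPM in both wt libraries at D0 and at 442 and 495 CPM at D15 (1.38-fold, 0.46 ± 0.11, FDR 0.0051). In KO it was at 306 and 309 CPM at D0 and 649 and 584 CPM at D15, and it was called higher at the threshold itself (2.00-fold, 1.00 ± 0.11, FDR 0.00013). The call rests on the threshold: the change was 0.99 without KO replicate 1 at D0, 0.93 without KO replicate 1 at D15 and 0.92 without both. At D15 every KO library was above every wt library, by 1.32-fold (0.40 ± 0.11, FDR 0.025). That pass was lost without wt replicate 1 at D15 (0.30), without KO replicate 1 at D15 (0.34) and without both KO libraries of replicate 1 (0.34). It was also lost with the CRISPR control, at 630 CPM, counted as wt (0.26, FDR 0.23). The interaction passed (0.54 ± 0.16, FDR 0.038), but not with the CRISPR control as wt (0.44, FDR 0.23) or on cast SNP reads (0.32, FDR 0.31). Its pass was also lost without wt replicate 1 at D15 (0.45) and without KO replicate 1 at D0 (0.53). Without both KO libraries of replicate 1 the interaction was 0.47 and did not pass.

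In E8 the KO was lower instead, at 147 and 144 TPM against 259 and 242 TPM at D7 (1.72-fold, -0.78 ± 0.04, FDR 9.5e-07) and at 190 and 189 TPM against 296 and 307 TPM at D15 (1.59-fold, -0.67 ± 0.04, FDR 3.6e-06). Phc1 rose from D7 to D15 in E8 of both genotypes (0.27 ± 0.04 in wt and 0.38 ± 0.04 in KO). Among the 3 Phc genes it held 91.8% ± 0.72 (SD, n = 2) of the TPM in Tsix-stop wt at D0 and 90.7% ± 0.36 in E8 wt at D7, and its lowest share was 70.7% ± 0.69 in E8 KO at D7.

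**Figure D3:**
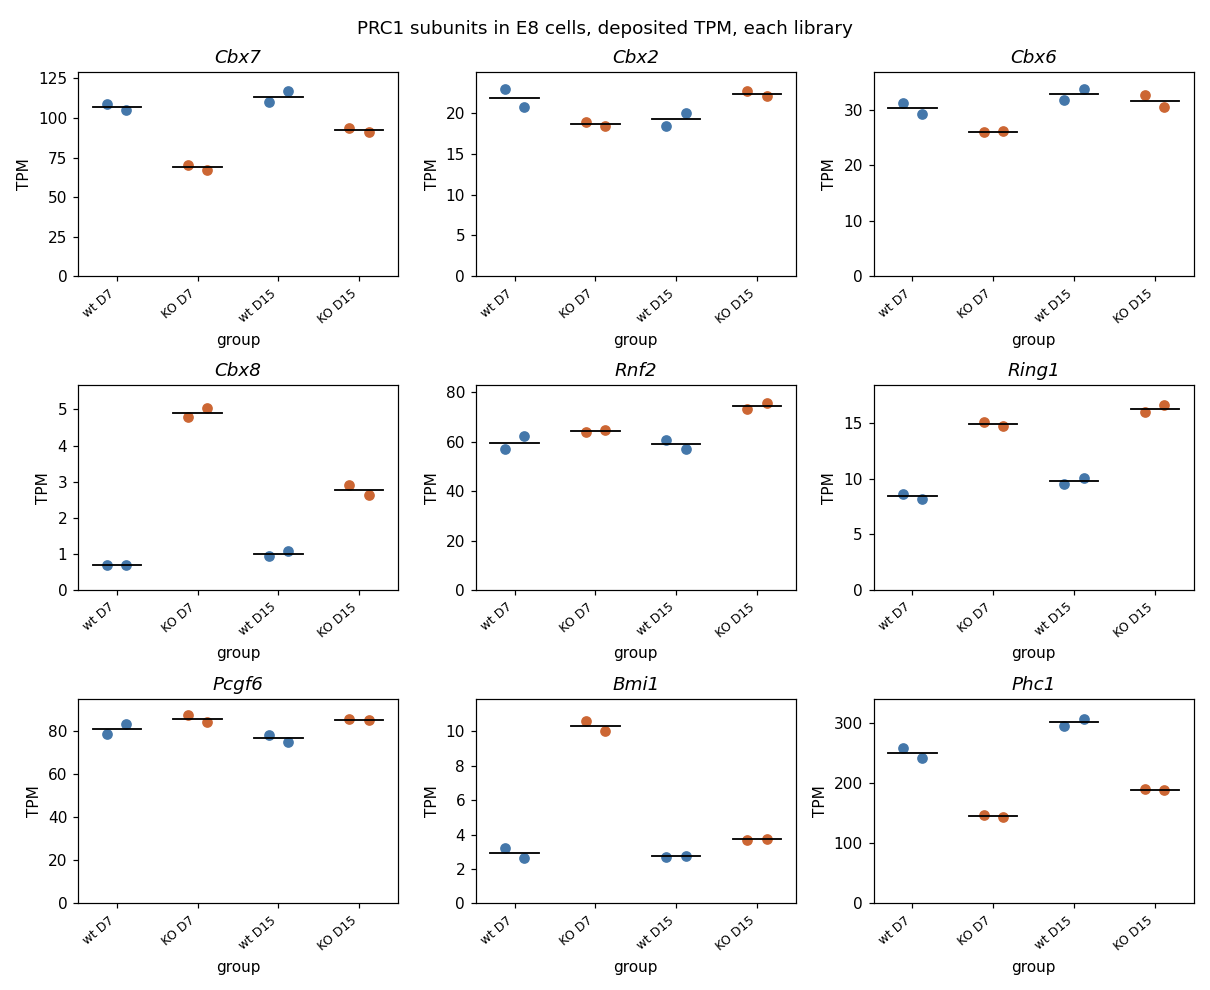
Level of each gene in TPM (vertical axes, from 0) in the 8 E8 libraries, by group; points are libraries and bars are means of 2. Cbx7 and Phc1 are lower and Cbx8 and Ring1 higher in KO at both days, and Bmi1 is high in KO at D7 only.

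Between the lines, the KO differences at D15 ran in opposite directions for 5 genes, with no overlap between KO and wt in either line. How many of all genes did the same was not counted. At D15 44.6% of all genes passed by FDR alone between KO and wt in Tsix-stop cells and 78.3% in E8. The count of 5 is therefore not a result about PRC1 genes. Cbx7 and Phc1 were higher in KO in Tsix-stop cells (0.50 and 0.40) and lower in E8 (-0.30 and -0.67). Cbx8, Ring1 and Rnf2 were lower in KO in Tsix-stop cells (-1.38, -0.88 and -0.18, the last not passing) and higher in E8 (0.91, 0.68 and 0.33), where Cbx8 had to be higher in KO to pass the E8 filter. The values come from counts in Tsix-stop cells and from log2(TPM + 1) in E8, and the difference between the lines was not tested. Beside them, the pluripotency markers of KO lay above those of wt at D15 in Tsix-stop cells (median log2 change 0.93). There 2 of 6 were called higher, against 502 of the 13121 genes tested. In E8 these markers were lower in KO at D15 (median -0.67, none of 6 called, against 10.7% of all genes). At D7 in E8 3 of 6 were called lower, against 6.18% of all genes (median of the 6 markers -1.01). Of the 5 visceral endoderm markers, 4 were called lower in KO in Tsix-stop cells at D15, against 11.1% of all genes. In E8 at D15 5 were called higher, against 7.67% of all genes. In Tsix-stop cells 3 of these 4 passed the filter only through wt, and in E8 4 of the 5 only through KO, so they had to differ to be tested; their summed levels in all libraries are given above. Cell makeup and KO cannot be told apart in these libraries.

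**Figure D4:**
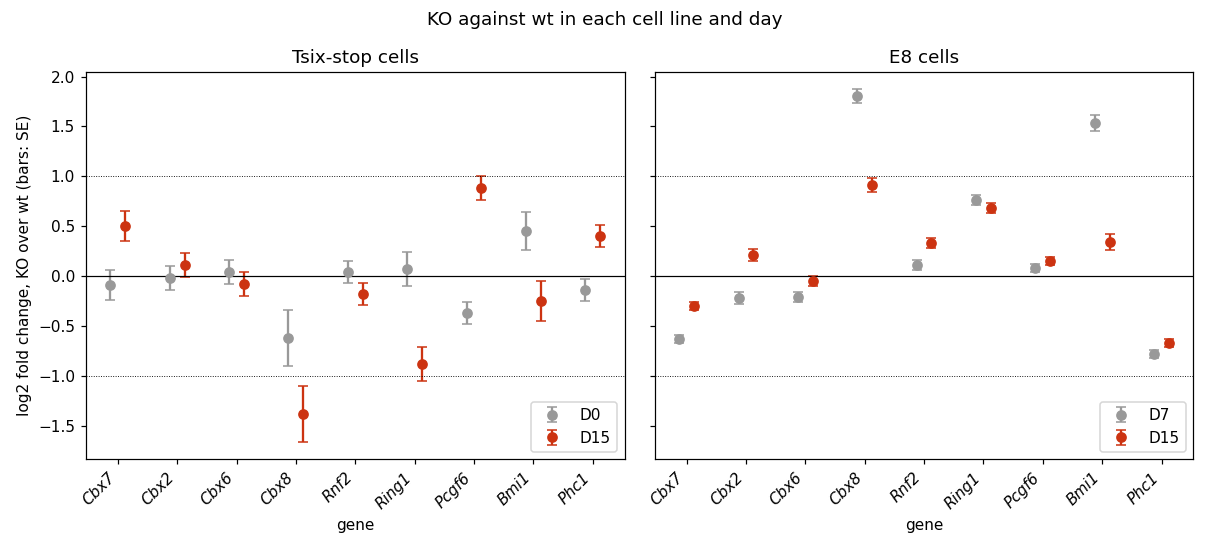
Log2 fold change of KO over wt (vertical axis, with SE bars) for each of the 9 genes at both days, in Tsix-stop cells (left, edgeR) and E8 (right, limma on log2(TPM + 1)); dotted lines mark 2-fold. At D15 Cbx7 and Phc1 lie above 0 in Tsix-stop cells and below 0 in E8, and Cbx8 and Ring1 lie below 0 in Tsix-stop cells and above 0 in E8.

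Reads that cover a SNP separated the non-cast from the cast allele in Tsix-stop cells. Cbx7 was close to even in all groups, with a non-cast share of 45.3% (95% Wilson interval 44.0 to 46.7%, 4987 reads) and 45.6% in wt at D0 and of 49.5% and 49.2% in KO at D15, and Pcgf6 ranged from 44.2% to 51.7%. Cbx2 ranged from 43.4% to 52.7%. Cbx6 leaned to the non-cast allele in every library, from 56.5% to 68.7%. The shares of Cbx8, Ring1 and Bmi1 rest on 20 to 529 reads, with intervals as wide as 53.1 to 88.8%, and small differences were not detectable at this depth. Intervals cover counting error only.

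Rnf2 leaned to the non-cast allele at D0, with 69.4% (66.3 to 72.3%) and 66.2% (62.9 to 69.4%) in wt and 64.9% and 66.3% in KO. At D15 the shares were 55.8% (52.0 to 59.5%) and 52.3% (47.7 to 56.8%) in wt, 63.3% (59.0 to 67.4%) and 61.0% (56.7 to 65.1%) in KO, and the CRISPR control had 55.8%. The median share of genes within 5 Mb of Rnf2 stayed between 48.9% and 52.4% in all 10 libraries. On cast SNP reads alone the change of Rnf2 with day in wt was -0.14 and did not pass (FDR 0.49); the difference between the alleles was not tested.

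For Phc1 it was the cast allele that gained in wt. Its non-cast share was 46.2% (44.6 to 47.9%) and 45.6% in wt at D0 and 32.9% (31.5 to 34.3%) and 36.3% (34.8 to 37.8%) in wt at D15, and on non-cast SNP reads alone its change with day in wt was 0.06 (FDR 0.73). In KO it was 46.6% and 51.7% at D0 and 42.6% and 50.9% at D15. In the CRISPR control it was 63.0% (61.4 to 64.5%) at D0 and 62.1% at D15. Here the neighbourhood moved too: the median share over 80 to 90 genes within 5 Mb was 50.3% and 51.2% in wt at D0, 44.4% and 43.6% in wt at D15, 48.8% and 56.7% at D15 in KO, and 65.7% and 66.5% in the CRISPR control. On cast SNP reads alone, the KO difference of Phc1 at D15 was 0.14 (FDR 0.5). The part of this chromosome 6 region in the level of Phc1 was not tested. Around Cbx2 and Cbx8 on chromosome 11 the median share was 45.2% and 44.4% in wt at D15 and 50.4% and 49.7% in KO.

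**Figure D5:**
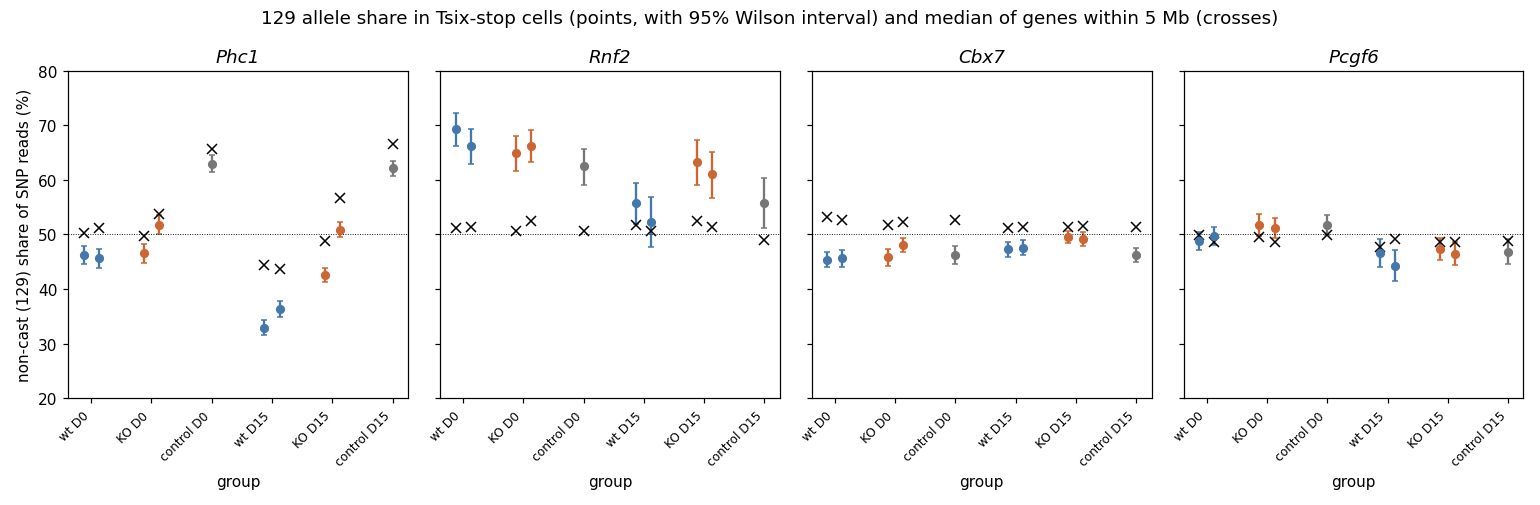
Share of SNP reads from the non-cast allele (vertical axis, percent, from 20 to 80) of Phc1, Rnf2, Cbx7 and Pcgf6 in the 10 Tsix-stop libraries, with 95% Wilson intervals, and the median of genes within 5 Mb (crosses). The crosses of Phc1 lie at 65.7% and 66.5% in the CRISPR control, and those of Rnf2 stay between 48.9% and 52.4% while Rnf2 itself moves.

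The CRISPR control did not follow wt for every gene at D15. Cbx8 was at 2.29 CPM in it and Pcgf6 at 64.2 CPM, both nearer to the KO mean than to the wt mean, and Phc1 (630 CPM) and Bmi1 (5.94 CPM) lay within the KO range. Ring1 (15.3 CPM) and Cbx7 (183 CPM) were nearer to wt, and Cbx6 (104 CPM) and Rnf2 (109 CPM) lay within the wt range. At D0 Cbx7 was at 105 CPM in the control, below all wt and KO libraries. The names under which these libraries were deposited call them KO, against their labels, so which they are is in some doubt.

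A list of 19 other PRC1 genes was tested whole in both lines. With day in Tsix-stop wt, 4 were called higher and 1 lower (median log2 change 0.06, against 0.02 over all genes), where 24.2% of all genes were called higher and 13.6% lower. The largest changes were those of Pcgf5 (9.99 to 78.1 CPM, 2.97), Scml2 (12.0 to 50.6 CPM, 2.07) and Phc2 (29.2 to 78.1 CPM, 1.42). Pcgf5 is the PCGF protein of a variant PRC1 that also acts on the inactive X. Over the same days in KO, Pcgf5 rose from 10.2 to 42.8 CPM, and no other gene of this list was called, against 27.6% of all genes. KO and wt differed in Scml2 at D0 (1.59), where 8.12% of all genes were called. At D15, where 14.9% of all genes were called, they differed in Bcorl1 (-1.29) and Scml2 (-1.05). In the interaction 3 of the 19 were called, all lower: Scml2 (-2.63), Yaf2 (-1.60) and Phc2 (-1.22), where 10.5% of all genes were called lower. In E8 the KO was higher in Pcgf5 (97.3 against 24.4 TPM at D7, 1.96, and 69.6 against 17.9 TPM at D15, 1.90) and Phc2 (1.32 at D7 and 1.12 at D15) and lower in Scml2 at D7 (-1.64), which passed the E8 filter only through wt. Of all genes, 11.4% were called higher and 6.18% lower in KO at D7, and 7.67% higher at D15. Among the 6 Pcgf genes Pcgf5 held 31.9% ± 0.37 of the TPM in E8 KO at D7 and 11.8% ± 0.86 in E8 wt.

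Of 6 genes for H2A deubiquitination, Asxl3 was called higher (1.91, passing the filter only through D15) and Asxl2 lower (2.01-fold) with day in Tsix-stop wt. There 24.2% of all genes were called higher and 13.6% lower. None was called in the other Tsix-stop comparisons, where 8.12% to 27.6% of all genes were called. In E8, where 1.41% to 17.5% of all genes were called, none of the 5 tested was. Counts from so few genes say little. The 3 HP1 genes Cbx1, Cbx3 and Cbx5, which read H3K9 methylation and are outside PRC1, were called in no comparison. By FDR alone all 3 passed with day in Tsix-stop wt, against 74.6% of all genes, and 1 in KO, against 64.7%. Their medians were -0.72 with day in Tsix-stop wt and -0.39 in KO, against 0.02 and 0.00 over all genes.

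Of 15 developmental genes known to carry polycomb marks in ES cells, 10 passed the filter in Tsix-stop cells and 11 in E8. With day in Tsix-stop wt 8 were called higher (24.2% of all genes), but 7 of these passed the filter only through D15 libraries. Genes silent at both days were thus not tested, and the count says nothing of the list. The exception was Cdkn2b, a cell cycle inhibitor (5.57 to 35.8 CPM, 2.68). Among the 7, Hand1 went from 0.252 to 89.3 CPM, Wnt5a from 0.0691 to 13.1 CPM and Gata6 from 0.301 to 32.8 CPM. In KO 8 were called higher, again 7 of them only through D15, and 1 lower. Of the 13121 genes tested there, 2620 were called higher and 1005 lower. At D15, where 11.1% of all genes were called lower in KO, 8 of the list were called lower. Of these 8, 4 passed only through wt (Foxa1, Foxa2, Sox17 and Wnt5a). The other 4 were Gata6 (3.80 against 32.8 CPM, -3.11), Gata4 (10.3 against 65.3 CPM, -2.67), T (2.46 against 8.03 CPM, -1.71) and Cdkn2b (11.2 against 35.8 CPM, -1.68). None was called at D0. In E8, 9 of the 11 tested were called higher in KO at D7 (11.4% of all genes), 4 of which passed the filter only through KO. At D15 7 were called higher (7.67% of all genes), 3 of which passed only through KO. Gata4 was at 136 TPM in E8 KO and 6.23 TPM in wt at D7. Gata4, Gata6, Sox17 and Foxa1 are also endoderm genes, and the visceral endoderm markers were lower in Tsix-stop KO at D15 and higher in E8 KO, as given above.

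Germline genes that the PCGF6 complex is known to repress were set beside Pcgf6. In Tsix-stop cells 9 of 10 were tested. With day in wt, where Pcgf6 fell, 3 were called higher and 2 lower, against 37.8% of all genes called (24.2% higher and 13.6% lower). In KO, where Pcgf6 did not pass, 5 were called higher and 2 lower. Of the 13121 genes tested there, 27.6% were called, 2620 of them higher and 1005 (7.66%) lower. Tdrkh, among those higher in each genotype, passed the filter only through D15. In KO the largest rises were those of Sycp3 (3.13 to 31.0 CPM, 3.31) and Smc1b (2.14). At D15 Sycp3 (1.65) and Ddx4 (1.05) were called higher in KO, where Pcgf6 was also higher. Of the 13121 genes tested, 502 were called higher there. In E8 KO at D7, Pcgf6 was at 85.7 ± 2.27 TPM, against 80.9 ± 3.33 TPM in wt. There 5 of 9 were called lower, against 6.18% of all genes, led by Dazl (-2.40), Smc1b (-1.93) and Mael (-1.89). At D15 3 of 9 were called lower, against 383 of the 12452 genes tested. Of these germline genes, Smc1b passed the E8 filter only through wt. The median over all genes tested was -0.00 between KO and wt at D15 in Tsix-stop cells and 0.10 at D7 in E8.

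The pattern of Cbx7 was most like those of Gstm2, Ubxn10, Gna15, Mta3 and Dock6 among the 11956 genes tested in both lines, with a mean Pearson r of 0.971 to 0.955 over the 10 Tsix-stop and the 8 E8 libraries. Phc1 came at rank 157 of these (0.778 in Tsix-stop cells and 0.967 in E8). Among the 9 genes, Bmi1 (-0.797 and -0.961) and Cbx8 (-0.771 and -0.936) had the patterns most opposite to that of Cbx7 by the mean over both lines. Rnf2 (-0.802 and -0.423), Pcgf6 (-0.273 and -0.764) and Ring1 (-0.037 and -0.720) were also negative in both lines. For Cbx2 the nearest were Zfp109, Lhpp, Shmt1, Atic and BC023829 (0.942 to 0.919). Rnf2 (0.895) and Bmi1 (0.912) were close to Cbx2 in Tsix-stop cells and not in E8 (0.287 and -0.476). These are descriptions over few libraries that share day and genotype.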

How the data were processed

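RNA-seq (single-end reads, mm10) was analysed from the deposited gene tables. For Tsix-stop cells the authors deposited estimated counts per gene, on the 129 genome (the strain called non-cast here), on the cast genome and of SNP reads of each allele, as read from the column names. The diploid column on the 129 genome was used, and 7.1% of its values were not whole and were rounded. For E8 the authors deposited TPM, with 537 symbols given more than once, which were summed. The authors kept reads of MAPQ 30 or more. The submitters' processing notes name Bowtie2 2.4.5 and TopHat2 2.1.1; the gene annotation and strand setting are not given in the sources used here. Tsix-stop TPM was computed here from union exon lengths (GENCODE vM21).

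Counts (51091152 to 68796179 per library) were fitted with edgeR 4.0.16 (TMM, quasi-likelihood test, 8 wt and KO libraries, 13121 genes at 2.5 CPM or more in 2 libraries) and E8 values with limma 3.58.1 (trend, log2(TPM + 1), 8 libraries, 12452 genes at 2.5 TPM or more in 2 libraries), with Benjamini-Hochberg FDR over all genes. Both fits were tested on simulated data. Alternatives included DESeq2 1.42.0, other filters and pseudocounts, the replicate block, left-out libraries, the CRISPR control as wt, SNP reads of a single allele and, chosen after seeing the data, counts on the cast or either genome and leaving out both KO libraries of replicate 1. All 9 members were named, with up to 3 called genes of each further list with the largest change. The share of Pcgf2 was given as well. Shares and lists leave out 1 gene, which is not reported here. The members and lists were chosen with earlier results of these data known.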

Additional observations from a re-analysis of the deposited data

Results flagged for a closer look

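The change with day differed between KO and wt for Pcgf6 in Tsix-stop cells, with an interaction of 1.25 on the log2 scale (edgeR), and for Bmi1 in E8, with an interaction of -1.19 (limma). Both were flagged because the test of the difference itself was called.

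For 5 genes every KO library lay on one side of wt at D15 in Tsix-stop cells and on the other side in E8. How many of all genes did so was not counted, so this count is not a result about PRC1 genes. The log2 KO differences in Tsix-stop cells and in E8 were 0.50 and -0.30 for Cbx7. For Phc1 they were 0.40 and -0.67. Cbx8 gave -1.38 and 0.91, the second from a gene that had to be higher in KO to pass the E8 filter. Ring1 gave -0.88 and 0.68, and Rnf2 gave -0.18, which did not pass, and 0.33. The difference between the lines was not tested, since the lines were deposited in different units and at different earlier days. No group had the 4 libraries needed for a search for outlying libraries.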

How the results depend on the processing

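Under FDR alone the counts of genes called were 6 with day in Tsix-stop wt, 6 in KO, 1 between KO and wt at D0, 5 at D15 and 5 in the interaction, and in E8 4 with day in wt, 8 in KO, 9 between KO and wt at D7, 8 at D15 and 6 in the interaction. The 2 genes called with day in Tsix-stop KO became 1 with no filter on low counts, with the CRISPR control as wt, on non-cast SNP reads, without both KO libraries of replicate 1, and on the cast or either genome (1 to 2 with single libraries left out); Phc1 was then at 0.82 to 0.99. On cast SNP reads it was 3, with Cbx8 (-1.26) and Ring1 (-1.01) gained and Phc1 (0.95) lost. Without both KO libraries of replicate 1, chosen after seeing the data, 0, 1 and 1 genes were called between KO and wt at D0, at D15 and in the interaction, the same counts as with them; the lone KO library of each day was assumed to vary like wt, and Cbx6 with day in KO was -0.06, Cbx2 at D0 0.04 and Cbx7 at D0 0.06. On non-cast SNP reads 1 gene was called between KO and wt at D0 (Cbx8, -1.12). The Tsix-stop interaction gave 0 genes with the CRISPR control as wt (edgeR) and 2 on the cast and either genome (1 to 2 with single libraries left out, 2 without KO replicate 1 at D0, where Ring1 was at -1.02). With a pseudocount of 0.1, Cbx8 was called in E8 at D15 (1 gene) and in the interaction (2 genes, Cbx8 at -1.28). By CPM the Cbx7 share in Tsix-stop wt at D15 was 52.4%.

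Replicate numbers showed no pairing shared by all groups (correlations of deviations -0.16 to 0.20). The highest was between KO at D0 and KO at D15 in Tsix-stop cells, where Kdm6a was also higher in replicate 1 than in replicate 2 at both days. Whether the numbers follow the clones within KO was not tested. The replicate block was shared by wt and KO, so it does not model a pairing within KO alone. The fit with this block called 2, 2, 0, 1 and 1 genes in Tsix-stop cells and 0, 1, 2, 0 and 1 in E8, as many as without the block.

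Some values that were not called changed sign, and some of these had passed by FDR alone, such as that of Ring1 with day in wt. With day in Tsix-stop wt, Cbx7 was -0.02 and Ring1 -0.45 on cast SNP reads, and Cbx8 was -0.02 by DESeq2, -0.08 with no filter, -0.36 with the CRISPR control as wt, -0.18 on non-cast SNP reads and -0.01 on the cast and either genome. With day in KO, Cbx6 was -0.03 with no filter and -0.10 on non-cast SNP reads. Between KO and wt at D0, Cbx2 was 0.01 with no filter, 0.07 on non-cast and 0.05 on cast SNP reads, Cbx6 -0.13 and Ring1 -0.02 on cast SNP reads, Rnf2 -0.07 on non-cast SNP reads and Cbx7 0.06 with the CRISPR control as wt. On non-cast SNP reads Rnf2 was 0.04 at D15 and 0.12 in the interaction, and on cast SNP reads Cbx6 was 0.01 in the interaction. Rescaled E8 values were 0.03 for Pcgf6 with day in KO, -0.12 for Rnf2 and -0.15 for Pcgf6 at D7, and -0.01 for Pcgf6 at D15.

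With single libraries left out, the change with day in Tsix-stop wt ranged from -0.01 to 0.24 for Cbx7 and from -0.21 to 0.21 for Cbx8, and in KO from -0.06 to 0.09 for Cbx6. Between KO and wt at D0 it ranged from -0.12 to 0.08 for Cbx2, -0.04 to 0.12 for Cbx6, -0.26 to 0.06 for Cbx7, -0.01 to 0.15 for Ring1 and -0.01 to 0.09 for Rnf2, and at D15 from -0.17 to 0.03 for Cbx6. In E8 with day it ranged from -0.08 to 0.05 for Rnf2 and -0.18 to 0.04 for Bmi1 in wt and from -0.03 to 0.02 for Pcgf6 in KO. The cause of these moves was not tested. With 2 libraries per group, small changes are not resolved, and E8 depth is unknown.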
